A study of Homo sapiens with 6 samples.

Results

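Aminoacyl-tRNA synthetases attach each amino acid to its own tRNA, and so supply the ribosome with every building block of protein. Human cells hold a set of cytosolic enzymes and a separate set for translation inside mitochondria. The enzymes of both sets are encoded in the nucleus. When a cytosolic synthetase gene and a mitochondrial one are distinct, the mitochondrial gene carries a name that ends in 2. Many cytosolic synthetase genes are widely described as targets of ATF4, the transcription factor that is made when amino acids run short or the endoplasmic reticulum is stressed. 35 synthetase genes were followed, taken by symbol from the 58174 genes of each table: 19 cytosolic and 16 mitochondrial. GARS1 and KARS1 are counted as cytosolic, although each encodes both the cytosolic and the mitochondrial enzyme.

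The cells were LN-229, a long-established line of human glioblastoma. 3 libraries are labelled sh-JMJD1C, which usually stands for knockdown by a short hairpin RNA, here of JMJD1C, a protein of the JmjC demethylase family. 3 libraries labelled control-NC serve as controls, and all 6 were made from nuclear-enriched RNA from which ribosomal RNA had been removed. The labels name no further treatment and no hairpin sequence. Whether the libraries came from separate cultures is not stated, so p-values here reflect the spread between these libraries alone.

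The deposited values are FPKM, fragments per kilobase of gene and relative to library size, and whole reads could be recovered from them. The sh-JMJD1C libraries held 1676755, 1919675 and 1660561 reads, against 544442, 2004255 and 2960454 in the controls. Levels below are scaled RPM: reads per 1000000 of a library total that was first rescaled by the median ratio of genes between libraries. A gene with 3 reads, taken as the floor of detection for counting error alone, stood at 0.733 to 6.40 scaled RPM, highest in control 1. JMJD1C averaged 27.4 ± 16.1 scaled RPM in sh-JMJD1C libraries and 144 ± 44.1 in controls (SD, n = 3 each), lower in every sh-JMJD1C library. Limma-voom on the reads gave it a log2 fold change of -2.50 (SE 0.51), with adjusted p = 0.0253, and its exact permutation p was 0.1, the smallest that 3 against 3 libraries allow. The call was lost without control 1, control 3, sh-JMJD1C 2 or sh-JMJD1C 3 (adjusted p in limma-voom 0.00666 to 0.117 over the 6 refits). Genes of the 7SL RNA took 1.18%, 15.7% and 18.5% of the reads in sh-JMJD1C libraries, against 0.378%, 0.590% and 1.77% in controls. The nuclear RNA MALAT1 took 0.292%, 0.0915% and 0.185% in sh-JMJD1C libraries, against 1.73%, 1.25% and 2.40% in controls. The genes of the mitochondrial genome took 12.6%, 1.33% and 1.70% in sh-JMJD1C libraries, against 7.04%, 8.70% and 2.93% in controls. 1 gene without a symbol took 25.03% of the reads of control 1. The part of these shares in the results below was not tested, nor was that of how far each library was enriched for nuclear RNA. Less RNA per cell and fewer cells cannot be told apart in bulk RNA. Of 7 markers of glioblastoma lines, VIM, CD44 and EGFR made up nearly all reads, while GFAP and SOX2 were near 0 and S100B was at 0 in every library. The 7 summed to 1178 to 2140 scaled RPM in sh-JMJD1C libraries and 2051 to 2192 in controls. Summed markers of fibroblasts reached 9.83 to 23.3 scaled RPM in sh-JMJD1C libraries and 0 to 5.62 in controls. Those of epithelial, immune, neuronal, endothelial and erythroid cells stayed at or below 6.81 in sh-JMJD1C libraries and 10.2 in controls. COL1A2, LUM, KRT5, CD3E, PECAM1 and HBB, markers in these lists, were at 0 in every library. COL1A1 lay above every control, at 15.1 ± 8.22 scaled RPM in sh-JMJD1C libraries and 3.34 ± 2.89 in controls, and DCN had 6 reads each in sh-JMJD1C 2 and 3 and at most 2 in any other library. VWF and CDH5 also lay above every control, with 6 and 8 reads in all.

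The cytosolic synthetase genes split in direction. GARS1, which charges glycine, and TARS1, which charges threonine, fell in sh-JMJD1C libraries in limma-voom on the reads. The planned test on FPKM called neither, and each call in limma-voom was lost without certain single libraries. GARS1 averaged 161 ± 62.3 scaled RPM in sh-JMJD1C libraries and 444 ± 71.5 in controls, and TARS1 averaged 229 ± 55.0 and 599.6 ± 83.0 (SD, n = 3 each). A further 5 cytosolic genes lay below every control library and were called in neither fit. In contrast, 5 cytosolic genes lay above every control library, again called in neither fit: FARSA, HARS1, KARS1, QARS1 and VARS1. The mitochondrial genes held no member that lay below every control library and 5 that lay above: CARS2, EARS2, LARS2, MARS2 and VARS2. The margin was narrow in VARS2, whose lowest sh-JMJD1C library had 19.66 scaled RPM and whose highest control had 19.52. It was also narrow in EARS2 (41.4 and 40.5) and MARS2 (4.21 and 4.07, with 0 reads in control 1). Over all genes tested on reads, 17.2% lay below every control library and 17.3% above. The counts depend on the scaling between libraries: with no rescaling, 8 cytosolic genes lay below and 2 above, and 1 mitochondrial gene lay below and 1 above. The shares of all genes hold for scaled RPM, and none was computed without rescaling. With library totals in place of rescaling, the median log2 fold change of all genes in limma-voom was -0.52.

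The planned test, limma on log2 of scaled FPKM plus 0.5 with Benjamini-Hochberg adjustment over 18383 genes, called 0 of the 34 synthetase genes it tested, where it called 0.185% of all genes. At an unadjusted p below 0.05 it gave 14 synthetase genes, 7 lower and 7 higher, where 19.9% of all genes passed. Limma-voom on the recovered reads, run over 11877 genes with at least 60 reads, called 2 of 33 synthetase genes, both lower, where it called 5.52% of all genes (1.81% lower and 3.71% higher). At an unadjusted p below 0.05 this fit gave 15 synthetase genes, 7 lower and 8 higher, where 30.8% of all genes passed. SARS2, with 38 reads in all, entered neither fit, and MARS2, with 41 reads, entered only the fit on FPKM. Fold changes below are those of the fit on reads, on the log2 scale, and a gene is said to have risen or fallen only where its adjusted p there is below 0.05. The median log2 fold change of all genes was -0.08 in this fit.

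**Figure D1:**
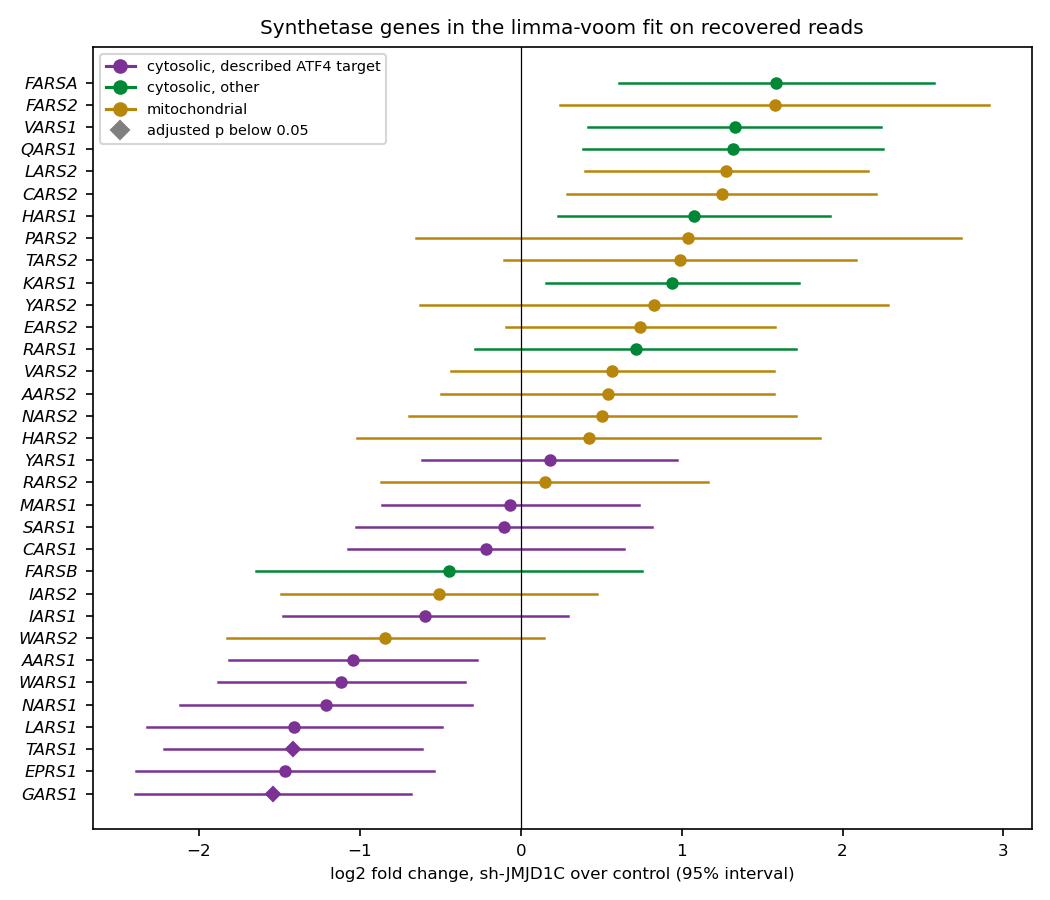
Log2 fold change of sh-JMJD1C over control for the tested synthetase genes, from limma-voom on recovered reads, with bars for the 95% interval, colours for the 3 lists and diamonds for adjusted p below 0.05. Only GARS1 (-1.54) and TARS1 (-1.42) are diamonds, and cytosolic genes reach 1.59 (FARSA) while mitochondrial genes run from -0.84 (WARS2) to 1.58 (FARS2).

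GARS1 (chr7:30594681-30634033, plus strand, hg38) had 227, 104 and 152 scaled RPM in the sh-JMJD1C libraries, against 525, 420 and 388 in the controls. The highest sh-JMJD1C library lay well below the lowest control. The log2 fold change was -1.54 (limma-voom, SE 0.39, adjusted p = 0.0451). The call of GARS1 was kept without sh-JMJD1C 1 and lost without any other single library, with adjusted p in limma-voom from 0.00679 to 0.195 and fold changes from -1.79 to -1.23. TARS1 (chr5:33440696-33469539, plus strand) had 258, 165 and 263 scaled RPM in sh-JMJD1C libraries, against 655, 504 and 640 in controls. The groups were again far apart, and the log2 fold change was -1.42 (limma-voom, SE 0.37, adjusted p = 0.0470). Its call was kept without sh-JMJD1C 1 or control 2, and lost without control 1, control 3, sh-JMJD1C 2 or sh-JMJD1C 3 (adjusted p in limma-voom 0.0136 to 0.201). It was also lost with the trend over transcript length removed (limma-voom log2 fold change -1.19, adjusted p = 0.0682) and with the trends over length and GC content removed (-0.85, adjusted p = 0.0717). The GARS1 value may hold reads of its neighbour GARS-DT, a transcript that starts on the other strand and overlaps it, since no source used here states the use of strand in counting. GARS-DT held 699 reads, 19.2% of those of GARS1, and it stood at 39.7, 16.5 and 26.7 scaled RPM in sh-JMJD1C libraries, against 113, 63.0 and 87.7 in controls. GARS-DT had a log2 fold change of -1.66 (limma-voom, adjusted p = 0.0494), a call lost without control 1, control 3, sh-JMJD1C 2 or sh-JMJD1C 3, with adjusted p up to 0.210.

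The other cytosolic genes whose groups stood apart on the low side were EPRS1, LARS1, NARS1, WARS1 and AARS1. EPRS1 joins the glutamate and the proline enzyme in 1 protein, and had 175, 86.4 and 161 scaled RPM in sh-JMJD1C libraries, against 424, 242 and 508 in controls. Its log2 fold change was -1.47 (limma-voom, SE 0.42, adjusted p = 0.0589). LARS1, the leucine enzyme and also a leucine sensor of the mTORC1 pathway, had 97.6, 40.5 and 92.7 scaled RPM in sh-JMJD1C libraries, against 220, 157 and 205 in controls. Its log2 fold change was -1.41 (limma-voom, SE 0.42, adjusted p = 0.0625). In both genes sh-JMJD1C 2 was the lowest library of all. NARS1, for asparagine, WARS1, for tryptophan, and AARS1, for alanine, had log2 fold changes of -1.21, -1.12 and -1.04, with adjusted p from 0.0698 to 0.0863 in limma-voom.

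On the high side stood FARSA, the catalytic subunit of the phenylalanine enzyme, with 215, 399 and 192 scaled RPM in sh-JMJD1C libraries, against 72.5, 140 and 56.9 in controls. Its log2 fold change was 1.59 (limma-voom, SE 0.45, adjusted p = 0.0558). VARS1, the valine enzyme, had 242, 265 and 132 scaled RPM in sh-JMJD1C libraries, against 87.4, 109 and 56.5 in controls, a log2 fold change of 1.33 (limma-voom, SE 0.42, adjusted p = 0.0693). QARS1, the glutamine enzyme, had 177, 418 and 278 scaled RPM in sh-JMJD1C libraries, against 70.4, 122 and 141 in controls, a log2 fold change of 1.32 (limma-voom, SE 0.43, adjusted p = 0.0743). In all 3 genes the lowest sh-JMJD1C library lay above the highest control. HARS1, the histidine enzyme, had 60.7, 105 and 94.1 scaled RPM in sh-JMJD1C libraries, against 42.7, 46.8 and 32.7 in controls, a log2 fold change of 1.08 (limma-voom, SE 0.39, adjusted p = 0.0963). KARS1, the lysine enzyme, had a log2 fold change of 0.94 (limma-voom, SE 0.36, adjusted p = 0.111). GARS1 and KARS1, which serve both compartments, thus stood on opposite sides of their controls.

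7 cytosolic genes overlapped between the groups: CARS1, FARSB, IARS1, MARS1, RARS1, SARS1 and YARS1. Their log2 fold changes ran from -0.59 in IARS1 to 0.71 in RARS1. Counted over the class, 7 of 19 cytosolic genes lay below every control and 5 above, where 17.2% and 17.3% of all genes tested on reads did so. In RPM of the recovered reads with no median-ratio rescaling, 8 lay below every control, the same 7 and IARS1, and only HARS1 and KARS1 lay above. For RPM without rescaling, no share of all genes was computed. The 19 genes had a median log2 fold change of -0.21, which turned to 0.11 without sh-JMJD1C 1, so the class as a whole had no stable direction.

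**Figure D2:**
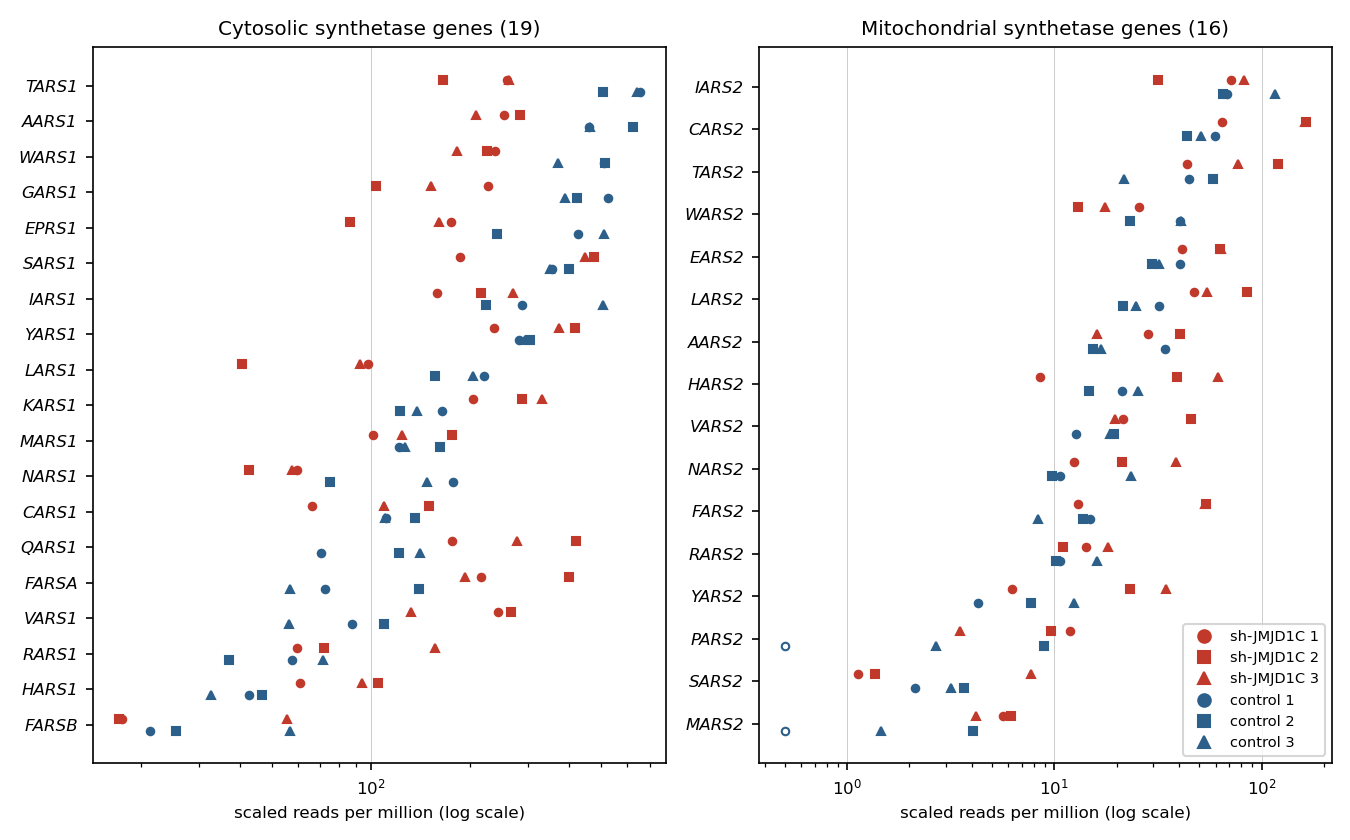
Level of each synthetase gene in each library in scaled RPM on a log axis, sh-JMJD1C and control libraries in 2 colours. Open circles placed at 0.5 mark libraries with 0 reads (PARS2 and MARS2 in control 1), and the 2 colours lie apart for 7 cytosolic genes on the low side and for 5 cytosolic and 5 mitochondrial genes on the high side. In EARS2, MARS2 and VARS2 they do so by a narrow margin.

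Set out by function, members of 1 assembly lay on both sides of their controls. 7 cytosolic synthetase genes (EPRS1, IARS1, LARS1, MARS1, QARS1, RARS1 and KARS1) encode members of the multi-synthetase complex, a large assembly held together by the AIMP scaffold proteins. Among these 7, EPRS1 and LARS1 lay below every control, QARS1 and KARS1 above, and 3 overlapped, with a median log2 fold change of -0.07. The 12 cytosolic genes outside the complex had a median of -0.33, with 5 below every control and 3 above. Over all genes tested on reads, 17.2% lay below every control and 17.3% above, and these small counts were not tested against those shares. Synthetases also fall into 2 unrelated catalytic folds, class I and class II. The 10 cytosolic genes of class I had a median of -0.14, and the 9 of class II one of -0.44. FARSA and FARSB encode the 2 kinds of subunit of a single enzyme, and FARSB had a log2 fold change of -0.44 (limma-voom, SE 0.55, adjusted p = 0.596), against 1.59 for FARSA. The reads of FARSA were 12.2, 23.3 and 3.47 times those of FARSB in sh-JMJD1C libraries, against 3.40 and 5.44 times in controls 1 and 2 and equal numbers in control 3, and these ratios overlapped between the groups.

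The cytosolic genes were also divided by whether they are widely described as raised by ATF4, a list drawn up with earlier results of these data known and so no independent evidence. Of these 12 genes (AARS1, CARS1, EPRS1, GARS1, IARS1, LARS1, MARS1, NARS1, SARS1, TARS1, WARS1 and YARS1), 2 fell, 0 rose, 7 lay below every control and 0 above, where 1.81% of all genes tested fell and 17.2% lay below every control. Their median log2 fold change was -1.08, and 11 of the 12 values were negative. Of the other 7 cytosolic genes (FARSA, FARSB, HARS1, KARS1, QARS1, RARS1 and VARS1), 0 fell, 0 rose, 5 lay above every control and 0 below, where 17.3% of all genes lay above. With no rescaling 8 of the 12 lay below, and of the 7 only HARS1 and KARS1 lay above. No share of all genes was computed without rescaling. The other 7 had a median log2 fold change of 1.08, with 6 values positive. Over the alternative settings of the fit on reads these medians ranged from -1.54 to -0.81 and from 0.66 to 1.28, so neither changed sign. The median transcript length was 3534 bases for the 12 and 2827 for the other 7, against 3540 for all genes tested, and the median GC content was 50.04%, 46.8% and 48.6% in the same order. GC content differed more by direction: its median was 44.3% for the 7 cytosolic genes below every control and 55.2% for the 5 above. With length and GC trends removed, the medians of the 12 and the other 7 were -0.81 and 0.75. The part of GC content in the split was not tested further.

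Summed over the 12 genes, the level was 2058, 2377 and 2437 scaled RPM in sh-JMJD1C libraries, against 4124, 3759 and 4103 in controls. The group means were 2291 ± 204 and 3995 ± 205 scaled RPM (SD, n = 3 each), a ratio of 0.573 of sh-JMJD1C to control. Over the other 7 genes the sum was 976, 1564 and 1238 scaled RPM in sh-JMJD1C libraries, against 516, 603 and 554 in controls, a ratio of 2.26. The 2 sums moved in opposite directions, and every library of a group stood on the same side of every library of the other group. Since the 2 lists were drawn up with earlier results of these data known, this separation and the ratio below are no independent evidence. The ratio of the 2 sums uses reads of 1 library alone and needs no scaling between libraries. It was 2.11, 1.52 and 1.97 in sh-JMJD1C libraries, against 7.99, 6.24 and 7.41 in controls.

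**Figure D3:**
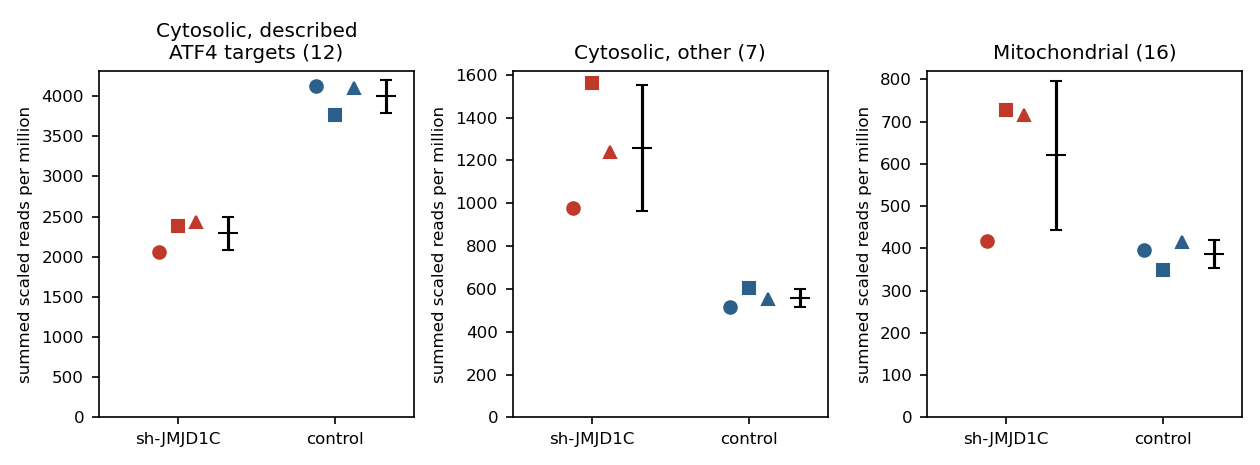
Summed level in scaled RPM per library for the 12 cytosolic genes described as ATF4 targets, the other 7 cytosolic genes and the 16 mitochondrial genes, with black bars for mean ± SD (n = 3). The sh-JMJD1C points lie at 2058 to 2437 against 3759 to 4124 in controls for the first list, and above the controls for the other 2, by a narrow margin for the mitochondrial genes. All lists were drawn up with earlier results of these data known.

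A stretch of DNA through which ATF4 is known to act, the amino acid response element, has the core TGATGNAA. A match is shown for each synthetase gene where it was found, a display chosen with the levels known. The motif was searched on both strands in RefSeq promoter windows (GRCh38.p14) that run from 250 bases before a transcript start to 50 bases after it. 30 of the 35 genes had a window; LARS1, VARS1, YARS1, AARS2 and VARS2 had no entry. The motif was found in 7 of 16 cytosolic genes and in YARS2 alone among 14 mitochondrial genes, where 3.62% of all 35116 windows and 4.46% of all 27305 genes with a window hold it. Each line gives 60 bases, 5′ to 3′ on the strand of the gene, with the match in capitals; a match on the other strand reads TTNCATCA.
GARS1, chr7:30594819-30594878, plus strand: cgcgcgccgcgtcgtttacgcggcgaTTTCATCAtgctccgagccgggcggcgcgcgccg
TARS1, chr5:33440941-33441000, plus strand: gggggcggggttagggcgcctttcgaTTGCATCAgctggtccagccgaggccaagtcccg
NARS1, chr18:57621789-57621848, minus strand: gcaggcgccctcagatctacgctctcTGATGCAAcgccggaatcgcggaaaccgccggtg
AARS1, chr16:70289660-70289719, minus strand: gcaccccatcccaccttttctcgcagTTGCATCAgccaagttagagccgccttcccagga
IARS1, chr9:92293677-92293736, minus strand: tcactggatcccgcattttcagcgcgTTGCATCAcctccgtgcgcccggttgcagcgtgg
CARS1, chr11:3057392-3057451, minus strand: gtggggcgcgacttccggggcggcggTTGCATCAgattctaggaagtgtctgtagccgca
MARS1, chr12:57488038-57488097, plus strand: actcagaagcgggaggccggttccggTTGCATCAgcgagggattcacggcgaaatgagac
YARS2, chr12:32756061-32756120, minus strand: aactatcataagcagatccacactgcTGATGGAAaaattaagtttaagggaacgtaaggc

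6 of the 7 cytosolic matches hold the same 8 letters, TTGCATCA or, where the match is on the strand of the gene, TGATGCAA, and GARS1 differs from them. In 6 of the 7, all but AARS1, the match lies within 33 bases of the transcript start. Of the 7 genes with the motif, GARS1 and TARS1 fell, and AARS1 and NARS1 lay below every control. CARS1, IARS1 and MARS1 overlapped, with log2 fold changes of -0.21, -0.59 and -0.07. The 7 had a median log2 fold change of -1.04. All 7 are also on the list of described ATF4 targets, so the motif does not divide the genes independently of that list. Of the 9 cytosolic genes with a window and no motif, 2 lay below every control and 4 above, with a median of 0.71. WARS1 and EPRS1 lay below every control with no match in their windows, so the letters and the levels did not run fully together. A match is a description of the sequence and says nothing of binding in these cells.

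The mitochondrial genes were measured at lower levels, so their values carry more counting error. FARS2, the phenylalanine enzyme, had 13.1, 54.2 and 53.4 scaled RPM in sh-JMJD1C libraries, against 14.9, 13.8 and 8.31 in controls. It was high in sh-JMJD1C 2 and 3 and at the control level in sh-JMJD1C 1, and its log2 fold change was 1.58 (limma-voom, SE 0.61, adjusted p = 0.114). LARS2, for leucine, had 47.1, 85.0 and 54.8 scaled RPM in sh-JMJD1C libraries, against 31.99, 21.6 and 24.9 in controls. Here all 3 sh-JMJD1C libraries lay above all controls, with a log2 fold change of 1.28 (limma-voom, SE 0.40, adjusted p = 0.0695). CARS2, for cysteine, had 64.2, 164 and 162 scaled RPM in sh-JMJD1C libraries, against 59.7, 43.5 and 51.3 in controls, a log2 fold change of 1.25 (limma-voom, SE 0.44, adjusted p = 0.0915). Its sh-JMJD1C 1 library stood just above the highest control.

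PARS2, for proline, rested on 21, 14 and 5 reads in sh-JMJD1C libraries, against 0, 22 and 11 in controls, and its log2 fold change of 1.04 had an adjusted p of 0.371 in limma-voom. MARS2, for methionine, had 10, 9 and 6 reads in sh-JMJD1C libraries, against 0, 10 and 6 in controls. SARS2, for serine, had 2, 2 and 11 reads in sh-JMJD1C libraries, against 1, 9 and 13 in controls, at or under the floor in 3 of the 6 libraries. These 3 genes were near the limit that the depth sets, most of all in control 1. The 0 reads in control 1 allow up to 6.40 scaled RPM there, more than MARS2 had in any sh-JMJD1C library.

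At the other end, WARS2, for tryptophan, had 25.6, 13.0 and 17.6 scaled RPM in sh-JMJD1C libraries, against 40.5, 23.2 and 40.8 in controls, a log2 fold change of -0.84 (limma-voom, SE 0.45, adjusted p = 0.221). IARS2, for isoleucine, had 71.5, 31.5 and 82.2 scaled RPM in sh-JMJD1C libraries, against 68.2, 65.1 and 116 in controls, and the groups overlapped (limma-voom log2 fold change -0.51, adjusted p = 0.451). These 2 were the only tested mitochondrial genes with a negative value. RARS2, for arginine, had 14.2, 10.97 and 18.3 scaled RPM in sh-JMJD1C libraries, against 10.7, 10.2 and 16.1 in controls, with a log2 fold change of 0.15 that turned negative with some other settings. HARS2, for histidine, had 8.52, 39.1 and 61.8 scaled RPM in sh-JMJD1C libraries, against 21.3, 14.6 and 25.4 in controls. It was low in sh-JMJD1C 1 and high in sh-JMJD1C 2 and 3, with a log2 fold change of 0.42 (limma-voom, adjusted p = 0.681). AARS2, EARS2, NARS2, TARS2, VARS2 and YARS2 had log2 fold changes from 0.51 to 0.99, none past the test.

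Of the 16 mitochondrial genes, 0 lay below every control and 5 above, of which 4 were among the 14 tested on reads, where 17.3% of all genes lay above. EARS2, MARS2 and VARS2 lay above by a narrow margin. In RPM with no rescaling, only LARS2 lay above and only WARS2 below, and no share of all genes was computed there. The 14 genes tested on reads had a median log2 fold change of 0.66, between 0.24 and 0.96 over the alternative settings. The whole set summed to 417, 729 and 716 scaled RPM in sh-JMJD1C libraries, against 397, 349 and 415 in controls. The means were 620 ± 177 and 387 ± 34.1 scaled RPM (SD, n = 3 each), a ratio of 1.604, and sh-JMJD1C 1 stood only just above control 3. As a share of all reads the sums overlapped, at 0.0438%, 0.0554% and 0.0614% in sh-JMJD1C libraries, against 0.0342%, 0.0428% and 0.0574% in controls.

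The cytosolic genes together summed to 3034, 3941 and 3675 scaled RPM in sh-JMJD1C libraries, against 4640, 4361 and 4656 in controls, a ratio of 0.780. Within each library, the reads of the cytosolic genes were 7.28, 5.41 and 5.14 times those of the mitochondrial genes in sh-JMJD1C libraries, against 11.7, 12.5 and 11.2 times in controls. This ratio needs no scaling between libraries, and it was lower in every sh-JMJD1C library.

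Taking each amino acid by itself, the reads of the cytosolic gene over those of its mitochondrial partner could be formed in every library for 14 pairs. FARSA and FARSB share FARS2 and so give 2 pairs that are not independent, and the methionine pair was left out for the 0 reads of MARS2 in control 1. In 6 pairs all 3 sh-JMJD1C libraries had a lower ratio than any control: leucine, threonine, asparagine, alanine, cysteine, and FARSB over FARS2. In 0 pairs was it higher in every library, and in 8 pairs the groups overlapped. The lower pairs include LARS1, TARS1, NARS1 and AARS1, already counted above as below every control. No share was computed for other pairs of genes, while the groups lay apart in 34.5% of single genes tested on reads. LARS1 over LARS2 was 2.07, 0.476 and 1.69 in sh-JMJD1C libraries, against 6.87, 7.26 and 8.21 in controls, so that reads of the mitochondrial gene outnumbered those of the cytosolic one in sh-JMJD1C 2. TARS1 over TARS2 was 5.91, 1.38 and 3.40 in sh-JMJD1C libraries, against 14.6, 8.67 and 29.4 in controls. CARS1 over CARS2 was 1.04, 0.912 and 0.675 in sh-JMJD1C libraries, against 1.86, 3.13 and 2.15 in controls, in which CARS2 was the gene that differed more. Each of the 6 pairs had a two-sided exact permutation p of 0.1, the smallest that 3 against 3 libraries allow, and 0.233 after adjustment over the 14 pairs.

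**Figure D4:**
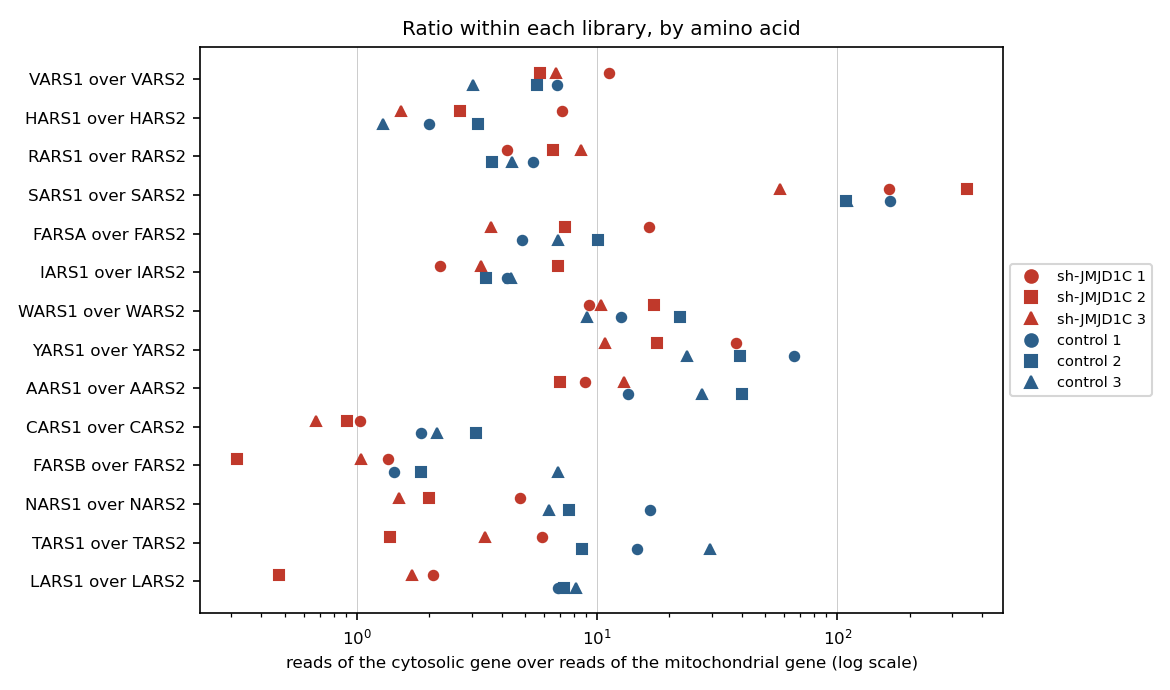
Reads of the cytosolic synthetase gene over reads of its mitochondrial partner, per library, on a log axis, for the 14 pairs with a ratio in every library. The sh-JMJD1C points lie below all control points in 6 pairs, with LARS1 over LARS2 at 0.476 to 2.07 against 6.87 to 8.21.

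The order of the levels also differed between the groups when set out per kilobase of the longest transcript. In sh-JMJD1C libraries the 5 highest were SARS1 (196 ± 84.1), FARSA (131 ± 55.1), KARS1 (113 ± 26.6), YARS1 (105 ± 28.8) and QARS1 (103 ± 42.9 scaled RPM per kilobase, SD, n = 3). These spreads are wide, and neighbours in this order did not differ beyond them. In controls the 5 highest were SARS1 (195 ± 14.8), GARS1 (169 ± 27.2), WARS1 (150 ± 26.6), AARS1 (148 ± 27.0) and TARS1 (139 ± 19.2 scaled RPM per kilobase), and neighbours again lay within their spread. SARS1, the serine enzyme, thus led both orders, while the 4 that followed it in controls were replaced in sh-JMJD1C libraries by other genes.

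Genes that work beside the synthetases were read as context. Of 26 such genes 23 were tested on reads, 2 fell and 1 rose, where 1.81% of all genes tested fell and 3.71% rose. The planned fit on FPKM called 0 of the 23 context genes that it tested. XPOT, which exports tRNA from the nucleus, averaged 94.4 ± 35.03 scaled RPM in sh-JMJD1C libraries and 447.5 ± 156 in controls (SD, n = 3 each), with a log2 fold change of -2.25 (limma-voom, SE 0.44, adjusted p = 0.0216). TRIB3, a pseudokinase gene induced by ATF4, averaged 35.4 ± 12.8 scaled RPM in sh-JMJD1C libraries and 152 ± 34.3 in controls, with a log2 fold change of -2.14 (limma-voom, adjusted p = 0.0200). TUFM, which delivers charged tRNA to the mitochondrial ribosome, averaged 528 ± 209 scaled RPM in sh-JMJD1C libraries and 143 ± 38.5 in controls, with a log2 fold change of 1.85 (limma-voom, adjusted p = 0.0323). The calls of TRIB3 and TUFM were lost without control 1, control 3, sh-JMJD1C 2 or sh-JMJD1C 3, and that of XPOT without control 1, control 3 or sh-JMJD1C 2 (adjusted p in limma-voom up to 0.143). The RNA of ATF4 itself averaged 231 ± 109 scaled RPM in sh-JMJD1C libraries and 244 ± 28.4 in controls, with a log2 fold change of -0.19 (limma-voom, adjusted p = 0.776). ATF4 is known to be controlled largely at translation, which these data do not measure. The cytosolic counterpart of TUFM, EEF1A1, had a log2 fold change of 0.13 (limma-voom, adjusted p = 0.846).

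GATB, a subunit of the enzyme that makes mitochondrial glutaminyl-tRNA, had a log2 fold change of 2.02 (limma-voom, adjusted p = 0.0530), and ELAC2, which trims the 3′ end of tRNA precursors, one of 1.24 (adjusted p = 0.0604). GATB overlapped between the groups, at 24.4 scaled RPM in sh-JMJD1C 1 and 27.7 in control 1. The other context genes for mitochondrial amidation and formylation went both ways. QRSL1 and MTFMT lay below every control, as 17.2% of all genes tested on reads did, and GATC overlapped. Their log2 fold changes were -0.98, -0.51 and 0.76 in that order (limma-voom, adjusted p from 0.151 to 0.548). SESN2, a leucine sensor and ATF4 target, had a log2 fold change of -1.34 (limma-voom, adjusted p = 0.0650), and EIF2AK4, the kinase that senses uncharged tRNA, one of -0.46. The other context genes for sensing and response, ATF5, CHAC1, PSAT1 and EIF2S1, overlapped between the groups. Their log2 fold changes were -8.3e-05, 0.09, -0.85 and -0.08 in that order (limma-voom, adjusted p from 0.217 to 0.9998). None of these passed the test.

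21 of the 35 genes are overlapped by a gene on the other strand, and for 12 of them those genes held more than 10% as many reads. MARS1 overlaps DDIT3, a stress gene that ATF4 induces, and DDIT3 averaged 12.5 ± 8.54 scaled RPM in sh-JMJD1C libraries and 59.2 ± 14.3 in controls, with a log2 fold change of -2.60 (limma-voom, adjusted p = 0.0391), lost without control 1, control 3, sh-JMJD1C 2 or sh-JMJD1C 3. HARS1 and HARS2 lie head to head and overlap each other, and their log2 fold changes were 1.08 and 0.42. HARS1, HARS2, SARS2, EARS2, WARS2 and YARS2 each have a partner on the other strand with more reads than their own. The part of these partners in the values was not tested. Synthetase pseudogenes took almost nothing, with 6 reads over 14 pseudogenes against 53842 reads of the synthetase genes.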

How the data were processed

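The authors deposited FPKM per gene at increasing fractions of the reads, per the file headers; the final column, for all reads, was used. The submitters' processing notes list Bowtie 0.12.2 and hg38 without roles. Counter, annotation and strand use: not given in the sources used here. Whole reads were recovered from the FPKM: for 93.7% of genes above 0 the length was that of the summed transcripts of GENCODE 29, for the rest the smallest length that made reads whole within 0.001 in all 10 columns of each library. The recovered reads summed to 100.0% of each library total. HARS1, FARS2, HARS2, LARS2 and VARS2 are among the rest. The main test was limma 3.58.1 (R 4.3.3) with trend on log2(median-ratio-scaled FPKM + 0.5), for genes with mean FPKM of at least 0.5. Limma-voom on the reads was a listed alternative and gives the fold changes printed. P-values were adjusted by Benjamini-Hochberg over all genes tested, with 0.05 as threshold. Members and lists were chosen with earlier results of these data known. Values in every library are given for called genes and for the 4 most negative and 4 most positive fold changes of each class. Alternatives covered pseudocount, filter, scaling, gene set, length and GC trends, a replicate block and left-out libraries. Motif letters were matched in RefSeq windows. The fits and the recovery were also run on simulated data. For the fits, every simulated gene had the same dispersion, and no trend over length or GC content was built in. The simulation therefore does not show how the fits perform on these libraries.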

Additional observations from a re-analysis of the deposited data

How the results depend on the processing

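In the fit on FPKM, 0 synthetase genes were called in every alternative but 2: restricted to protein-coding genes it called 2, GARS1 and TARS1, and limma-voom on the reads called the same 2. The fit restricted to protein-coding genes called 8.96% of all genes it tested. Within the fit on reads, the count of 2 became 6 with library totals and 6 with quantile normalization, all lower, and 1 with the length trend removed. It became 5 with length and GC trends removed (3 lower and 2 higher), and 3 without both libraries numbered 1 (1 lower and 2 higher). In the same order these settings called 10.1%, 8.22%, 3.42%, 6.75% and 7.54% of all genes tested. Leaving out 1 library at a time gave 0 to 14 calls: 14 without sh-JMJD1C 1 (6 lower and 8 higher), 4 without control 2, and 0 without control 1, control 3, sh-JMJD1C 2 or sh-JMJD1C 3. Of all genes tested, 19.7% were called without sh-JMJD1C 1 and 10.8% without control 2. The share was 0.261% to 0.817% without control 1, control 3, sh-JMJD1C 2 or sh-JMJD1C 3. The cause of these differences was not tested.

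The median of the cytosolic genes changed sign without sh-JMJD1C 1, to 0.054 on FPKM (range over left-out libraries -0.33 to 0.054) and 0.11 on reads (-0.30 to 0.11), and to 0.056 on reads without both libraries numbered 1. Leaving GARS1 and KARS1 out of the class kept its direction on FPKM. The median of the mitochondrial genes kept its direction in every alternative run. Scaling moved the median of all genes from -0.16 to -0.38 with FPKM as deposited and to -0.01 with quantile normalization, and on reads from -0.08 to -0.52 with library totals.

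Single genes changed direction in 32 of the 939 refits of single genes. On FPKM, log2 fold changes over left-out libraries ran from -0.404 to 0.054 for CARS1, -0.824 to 0.060 for FARSB, -0.235 to 0.068 for MARS1, -0.331 to 0.272 for SARS1 and -0.046 to 1.045 for HARS2. SARS1 was at 0.159 without both libraries numbered 1, YARS1 at -0.182, AARS2 at -0.0032 and RARS2 at -0.118 on FPKM as deposited, and YARS1 at -0.447 with quantile normalization. On reads, values over left-out libraries ran from -0.447 to 0.114 for CARS1, -0.242 to 0.122 for MARS1, -0.301 to 0.336 for SARS1, -0.153 to 1.301 for HARS2 and -0.055 to 0.353 for RARS2. Without both libraries numbered 1 they were CARS1 0.072, MARS1 0.056 and SARS1 0.301. With the length trend removed they were CARS1 0.248, MARS1 0.012 and RARS2 -0.435, with length and GC trends removed CARS1 0.019, FARSB 0.044, IARS1 0.022 and YARS1 -0.278, with library totals YARS1 -0.186 and RARS2 -0.311, and with quantile normalization YARS1 -0.373. None of these genes was called in the fits reported.

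Whether the replicate numbers pair the libraries is not stated, and the fits reported treat the libraries as unpaired. Deviations from the group means of libraries with the same number correlated at 0.00886, 0.140 and 0.220. Those of libraries with different numbers correlated at -0.265 to 0.125, and these values do not settle the pairing. With a replicate block the fit on reads called 18 synthetase genes, 8 lower and 10 higher, and 35.9% of all genes; the fit on FPKM called 0. Depth limits the mitochondrial genes most: control 1 held 186 reads for the 16 together.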
